A study of Mus musculus with 11 samples.

Results

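MicroRNAs (miRNAs) with late catalogue numbers, together with miR-720, were examined in the mouse oviduct after lipopolysaccharide (LPS), the outer membrane component of Gram-negative bacteria that Toll-like receptor 4 senses. The members were the mouse miRNA probes of the table whose number is 1000 or higher, plus miR-720, and a joint probe was placed by its first name. This gave 112 of the 566 mouse miRNA probes, against 454 with lower numbers. The rule uses names alone, though it was set with earlier results of these data known.

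The mice were female CD1 animals, an outbred strain, aged 6-8 weeks, injected intraperitoneally in PBS on the day of estrus, and their oviducts were taken 24 h later. Control mice were given 0 µg of LPS (n = 3), low dose mice 2 µg (n = 4) and high dose mice 10 µg (n = 4), all from E. Coli serotype 055:B5. The whole oviduct was used, so each value mixes every cell type of the organ, and fewer cells of a type and less RNA per cell cannot be told apart. Sample numbers in the labels run in order of dose, so sample order and dose cannot be told apart.

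Numbers in the miRNA catalogue follow the order of discovery. The late ones mostly came from deep sequencing of small RNA, and a part of them was later withdrawn because the reads were fragments of other RNAs, such as tRNA, or of repeats. miR-720 is the best known case: its sequence is a fragment of a threonine tRNA, which accumulates when tRNA is cleaved. A genuine miRNA is cut by Dicer from a hairpin and directs Argonaute proteins to mRNAs through its seed, bases 2 to 8. The nCounter assay ligates a tag to each small RNA and counts fluorescent barcodes, so it reports RNA that carries the matching sequence, whatever its origin.

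Mature sequences from RefSeq (GRCm38.p6) were matched by name. Of the 112 members, 52 had an entry under the probe's own name, 21 had entries only under a name with an arm suffix, and 39 had none. Among the 20 members detected below, these numbers were 6, 4 and 10. The 10 without an entry were miR-720, miR-1944, miR-1937a+miR-1937b, miR-1937c, miR-1186, miR-1935, miR-1965, miR-2132, miR-2183 and miR-2141. The 6 with an entry under their own name are shown, since they include one member that rose and one that fell with LPS and one that resembles let-7. Capitals mark the seed:
miR-1902: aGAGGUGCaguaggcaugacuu
miR-1896: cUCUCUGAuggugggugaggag
miR-1900: gGCCGCCCucucugguccuuca
miR-1951: gUAGUGGAgacugguguggcua
miR-1839-5p: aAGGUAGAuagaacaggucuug
miR-1961: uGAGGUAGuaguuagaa

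The first 5 had seeds found in no other mature mouse miRNA of the table. The seed of miR-1961, which is only 17 bases long, was shared with 10 others, the let-7 family and miR-98. Its first 13 bases were the same as those of let-7g-5p and let-7i-5p, shown here for that overlap, and 11 were the same as in let-7c-5p:
let-7g-5p: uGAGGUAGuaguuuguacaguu
let-7i-5p: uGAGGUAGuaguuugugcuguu

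In GRCm38.p6, miR-1902 lies at chr2:104428871-104428892 (minus strand), within the bounds of Hipk3, which encodes a protein kinase. miR-1896 lies at chr13:21445209-21445230 (plus strand), where the bounds of Zscan26, a zinc finger gene, and of the lncRNA 4930470G03Rik overlap. miR-1900 lies at chr9:21032261-21032282 (minus strand) within Icam5, a cell adhesion gene, and miR-1961 at chr5:92788465-92788481 (minus strand) within Shroom3, which shapes epithelial cells. miR-1951 (chr2:115638777-115638798, plus strand) lies within BC052040, and miR-1839-5p (chr7:81529919-81529940, plus strand) within the lncRNA 2900076A07Rik. The table gives gene bounds only, so exons and introns were not told apart. Strands of miRNA and gene were not compared, so a miRNA within the bounds of a gene may lie on its other strand. Of the 4 with arm entries only, miR-1955 lies within Phf21a, miR-1981 within Mtarc2, miR-1966 within Ripor1 and miR-1224, a miRNA made from a short spliced intron, within Vwa5b2.

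Total counts over the mouse miRNA probes ranged from 451323 to 684771 per mouse. Each lane's bound was set 2 SD above the mean of its 8 negative controls, and the 205 mouse miRNAs above their bound in at least 3 mice were taken as detected. This bound lay between 57.1 and 97.9 counts in 10 mice and at 142.9 in low dose mouse 4, where 1 negative control, NEG_C, read 162. Of the tissue's own markers, all 6 epithelial, both smooth muscle and 3 of 5 ciliated cell miRNAs were detected. Among markers of other tissues, none of 5 oocyte or embryo miRNAs and not the liver miRNA miR-122 were detected, but 2 of 4 striated muscle miRNAs, miR-1 and miR-133a, were. The striated muscle markers summed to 487 to 1195 normalized counts in high dose mice, 1033 to 1522 in low dose mice and 1135 to 1292 in control mice, none passed the test, and their part in the results was not tested. No marker of the leukocyte or erythroid lists passed the test at either dose. Leukocyte markers summed to 3676 to 4424 normalized counts in high dose mice, 4896 to 5496 in low dose mice and 3905 to 5364 in control mice.

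Most late-numbered probes gave no signal above the negative controls. Of the 112 members, 20 (17.9%) were detected, against 185 of 454 (40.7%) earlier-numbered probes and 0 of 33 viral miRNA probes, which have no target in uninfected mice. Detection in every mouse was met by 15 members (13.4%), against 130 earlier-numbered probes (28.6%). In 84 members (75%) the count passed the bound in no mouse, against 242 earlier-numbered (53.3%) and 31 viral probes (93.9%). The median of the mean count was 40.3 for the members, 48.7 for earlier-numbered probes and 36.5 for viral probes. All of these medians lay below the lowest bound, 57.1 counts, and that of the members was nearer the viral one.

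**Figure D1:**
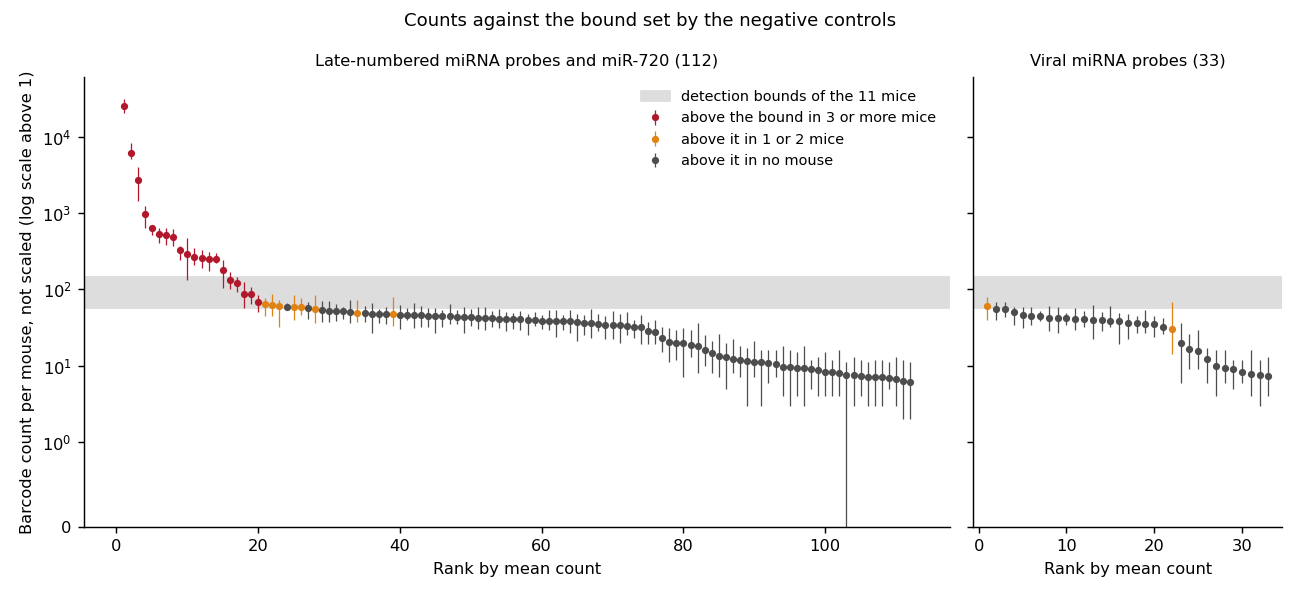
Unscaled barcode counts (vertical axis, log scale above 1) of the 112 late-numbered probes with miR-720 (left) and of the 33 viral probes (right), ranked by mean count; points are means over 11 mice and bars run from the lowest to the highest mouse. The grey band spans the detection bounds, 57.1 to 142.9 counts; 20 members stand above their bound in 3 or more mice, and no viral probe does.

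miR-720 was detected, as were 2 of 17 probes numbered 1186 to 1306, 14 of 71 numbered 1839 to 1983 and 3 of 15 numbered 2132 to 2861. None of the 8 numbered 3072 to 3475 was detected, and miR-3471 passed the bound in 1 mouse. The 3 members placed in the imprinted Dlk1-Dio3 region, miR-1188, miR-1193 and miR-1197, passed it in no mouse, at 24 to 54, 6 to 16 and 29 to 53 counts. Just outside the rule, miR-1186b and miR-1963 passed the bound in 2 mice each, and miR-1942, miR-1968, miR-1958, miR-1933-5p, miR-3471 and miR-1198 in 1 mouse each. Just inside it, miR-2141 passed in 3 mice with 51 to 83 counts, which overlaps the 45 to 86 counts of miR-1186b.

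The number of members above the bound was 18 to 23 of 112 in control mice, 15 to 21 in low dose mice and 18 to 20 in high dose mice, and the groups overlapped. The 15 came from low dose mouse 4, whose bound was highest; with NEG_C left out of the bound that mouse had 32, and the ranges were 18 to 27, 20 to 32 and 20 to 24. With the highest negative control as the bound, 31 members and 1 viral probe would count as detected.

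The detected members were dominated by a few probes. All members together took 7.17% to 7.54% of mouse miRNA counts in control mice, 6.41% to 8.00% in low dose mice and 7.35% to 7.81% in high dose mice. miR-720, miR-1944 and both miR-1937 probes made up 81.4% to 84.6% of that sum. Counts given as normalized were divided by library sizes that edgeR's TMM method (trimmed mean of M-values) adjusted, and put on the scale of the mean library. The order of probes is one of counts, since each probe ligates and is captured with its own efficiency.

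miR-720, the threonine tRNA fragment, had 27547, 24584 and 27071 normalized counts in control mice, 29375, 24932, 20516 and 25962 in low dose mice, and 25666, 24095, 26155 and 23997 in high dose mice. The groups overlapped throughout, and low dose mouse 3 was the lowest. It ranked 5th of the 205 detected miRNAs and took 3.57% to 5.16% of the counts of a mouse. Its log2 change was -0.08 ± 0.11 SE at the high dose (95% interval -0.32 to 0.16, edgeR quasi-likelihood adjusted p = 0.61) and -0.07 ± 0.11 at the low dose (-0.30 to 0.17, adjusted p = 0.731).

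The other probes placed in the tRNA-derived list, from general knowledge and not from the files, were those of miR-1937. The joint probe for miR-1937a and miR-1937b had 2177, 1649 and 1833 normalized counts in control mice, 2359, 2986, 2425 and 2788 in low dose mice, and 2659, 3701, 2624 and 4113 in high dose mice. Every LPS mouse stood above every control mouse, and high dose mice 2 and 4 stood above all others. The joint probe rose at the high dose to 3274 ± 750 in high dose mice, against 1886 ± 268 in control mice (SD, n = 4 and 3), a 1.74-fold change (log2 0.80 ± 0.17 SE, edgeR adjusted p = 0.00594). At the low dose it stood 0.48 ± 0.17 above control and did not pass (edgeR adjusted p = 0.104). It did pass in the edgeR fit to the compared groups alone (0.48 ± 0.13 SE, adjusted p = 0.0481).

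miR-1937c had 918, 710 and 928 normalized counts in control mice, 902, 1046, 956 and 1098 in low dose mice, and 891, 1194, 894 and 1094 in high dose mice. Here the groups overlapped, and the changes of 0.26 ± 0.14 SE at the high dose and 0.23 ± 0.14 at the low dose did not pass (edgeR adjusted p = 0.214 and 0.293). The ratio of the joint probe to miR-1937c within a mouse does not depend on scaling. It was 2.37, 2.32 and 1.98 in control mice, 2.62, 2.85, 2.54 and 2.54 in low dose mice, and 2.98, 3.10, 2.94 and 3.76 in high dose mice, so the 3 groups did not overlap. This ratio was chosen after the values were seen and was not tested. miR-1274a, whose human counterpart is known as a fragment of a lysine tRNA, was outside this list and was added after its values were seen: it read 4 to 13 counts and passed the bound in no mouse. The sequences of the miR-1937 probes were not used here, so how far both probes capture the same RNA was not tested.

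Ligation controls overlapped between the groups and moved with the joint probe in some mice only. Their geometric mean after scaling was 6034, 6139 and 6097 in control mice, 5980, 6340, 6325 and 6444 in low dose mice, and 5592, 7456, 5802 and 6206 in high dose mice. High dose mouse 2 was the highest in ligation and second highest for the joint probe. High dose mice 1 and 3 were the lowest in ligation, while their joint probe counts, 2659 and 2624, stood above every control mouse. High dose mouse 4, highest for the joint probe, lay within the range of the low dose mice in this mean. Its single controls differed. LIG_POS_A and LIG_POS_B, at 29300 and 7928 normalized counts, stood above every mouse except high dose mouse 2. LIG_POS_C, at 1029, was the lowest of all mice. With ligation as a covariate, added after the data were seen, the joint probe rose by 0.74 ± 0.16 SE at the high dose (edgeR adjusted p = 0.00579).

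**Figure D2:**
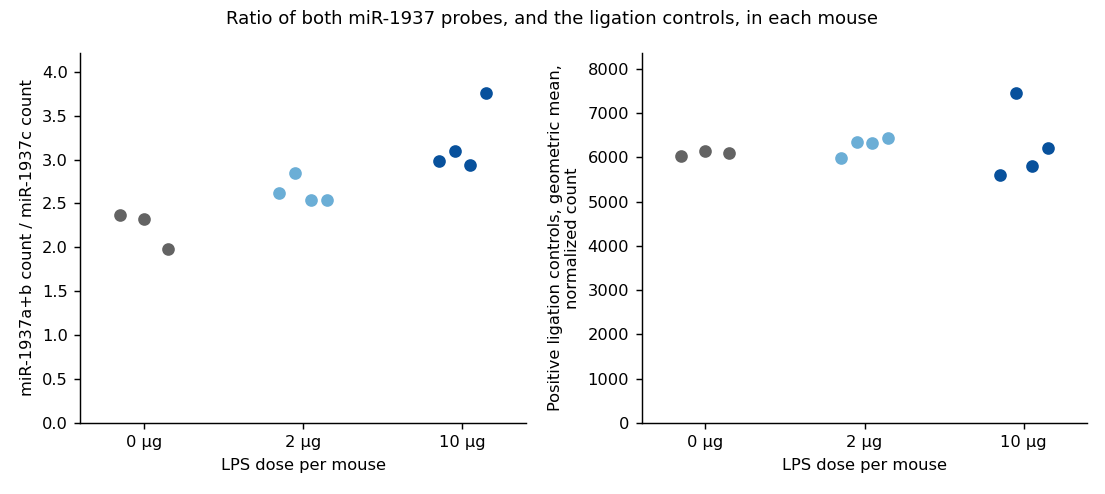
Left, count of the joint miR-1937a and miR-1937b probe divided by that of miR-1937c in each mouse (no unit); right, geometric mean of the 3 positive ligation controls (normalized counts); both axes start at 0, the horizontal axis gives the LPS dose in µg, and each point is 1 mouse. The ratio spans 1.98 to 2.37 at 0 µg, 2.54 to 2.85 at 2 µg and 2.94 to 3.76 at 10 µg, and the ligation controls overlap between doses.

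miR-1944 and miR-1951 complete the 5 members with the highest counts. miR-1944 had 7835, 6245 and 5682 normalized counts in control mice, 5285, 5743, 6083 and 5478 in low dose mice, and 6334, 5435, 6391 and 5878 in high dose mice. The highest value was that of control mouse 1, and the groups overlapped (log2 change -0.13 ± 0.11 SE at the high dose and -0.22 ± 0.11 at the low dose, edgeR adjusted p = 0.434 and 0.219). miR-1951 had 656, 634 and 619 in control mice, 623, 640, 572 and 638 in low dose mice, and 652, 690, 625 and 586 in high dose mice. It too overlapped between groups, and its high dose change of 0.0033 ± 0.09 SE was the smallest of the 20 members.

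At the high dose, 5 of the 20 detected members passed the test against control: miR-1902, miR-2183 and the joint miR-1937a and miR-1937b probe rose, and miR-1896 and miR-1186 fell. Over all 205 detected miRNAs 18.0% passed, 10.2% higher and 7.80% lower, so 5 of 20 is near the share of the whole table. High dose mice did not overlap control mice in 8 of 20 members, against 27.3% of all detected miRNAs. The 8 were the 5 called, plus miR-1900, miR-1965 and miR-1981, which stood lower and did not pass. The median log2 change was -0.02 over the 20 members and -0.03 over all 205.

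miR-1902, within the bounds of Hipk3, showed the largest change of the members. It had 201, 151 and 166 normalized counts in control mice, 296, 340, 277 and 316 in low dose mice, and 427, 266, 315 and 481 in high dose mice. Every LPS mouse stood above every control mouse, while both LPS groups overlapped, with high dose mice 1 and 4 above all low dose mice. It averaged 372 ± 99.2 in high dose mice and 173 ± 25.4 in control mice (SD, n = 4 and 3), a 2.15-fold rise (log2 1.10 ± 0.19 SE, edgeR adjusted p = 0.00163).

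At the low dose miR-1902 was the one member that passed, at 307 ± 27.1 normalized counts in low dose mice against 173 ± 25.4 in control mice (SD, n = 4 and 3), a 1.77-fold rise (log2 0.83 ± 0.19 SE, edgeR adjusted p = 0.0213). Over all 205 miRNAs 5.85% passed at this dose, 3.41% higher and 2.44% lower, against 1 of 20 members higher and 0 lower. No member fell in edgeR: 2 of the 13 members below control had an unadjusted p under 0.05 (miR-1896 and miR-1186), and DESeq2 called no member lower. The adjusted 1-way analysis of variance did call miR-1896 lower at the low dose (log2 change -0.18 ± 0.04 SE, adjusted p = 0.0482 over all miRNAs). The low dose call of miR-1902 ended without control mouse 2 or 3 or without low dose mouse 2 or 4, with adjusted p of 0.0856, 0.0793, 0.0563 and 0.0614 in edgeR and changes of 0.74, 0.80, 0.77 and 0.81. Low dose mice did not overlap control mice in 6 of 20 members, against 23.9% of all: miR-1902, the joint miR-1937 probe and miR-2183 stood higher, and miR-1186, miR-1896 and miR-1965 lower.

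miR-2183 was a probe near the detection bound. It had 65.0, 63.6 and 61.9 normalized counts in control mice, 82.3, 69.4, 94.8 and 83.6 in low dose mice, and 124, 104, 91.6 and 129 in high dose mice. High dose mice stood above all control mice, and high dose mouse 3 lay within the low dose range. It rose at the high dose to 112 ± 17.5 in high dose mice, against 63.5 ± 1.54 in control mice (SD, n = 4 and 3; 1.76-fold, log2 0.81 ± 0.15 SE, edgeR adjusted p = 0.00244). Its count passed the bound in 4 of 4 high dose, 2 of 4 low dose and 1 of 3 control mice. It passed most often in the group where it was high. The low dose and control mice together also met the filter of at least 3 mice. Its size depends on background: with the mean of the negative controls subtracted the change was 1.30 ± 0.26 SE.

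miR-1186 and miR-1896 fell by small amounts. miR-1186 had 602, 584 and 612 normalized counts in control mice, 503, 541, 521 and 541 in low dose mice, and 507, 511, 514 and 444 in high dose mice. No LPS mouse reached a control mouse. It fell by 0.28 ± 0.08 SE on the log2 scale at the high dose (edgeR adjusted p = 0.0343), to 494 ± 33.2 in high dose mice against 600 ± 14.2 in control mice (SD, n = 4 and 3).

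miR-1896 had 355, 373 and 359 normalized counts in control mice, 323, 304, 312 and 337 in low dose mice, and 306, 302, 307 and 282 in high dose mice. Again no LPS mouse reached a control mouse. It fell by 0.28 ± 0.08 SE on the log2 scale at the high dose (edgeR adjusted p = 0.0258). The calls of both rest on the scaling: scaled to the positive controls alone, miR-1186 stood at -0.11 ± 0.22 SE and miR-1896 at -0.10 ± 0.21 at the high dose (edgeR adjusted p = 0.922 and 0.934), and 3 of 3 called members were higher, against 3 of 5 with TMM. At the low dose that scaling put miR-1896 at 0.01 ± 0.21 SE, against -0.18 ± 0.08 with TMM, with no edgeR call in either. The calls also rest on single mice. Neither passed without high dose mouse 4 (-0.23 and -0.25, edgeR adjusted p = 0.086 for miR-1186 and 0.0601 for miR-1896), without control mouse 2 (-0.30 and -0.25, 0.0642 and 0.087) or without control mouse 3 (-0.26 and -0.28, 0.113 and 0.0636). In DESeq2 the adjusted p was 0.0718 for miR-1186 and 0.0898 for miR-1896. miR-1186 also did not pass in edgeR without control mouse 1 or low dose mouse 2 or 4 (adjusted p = 0.0887, 0.0511 and 0.0593).

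**Figure D3:**
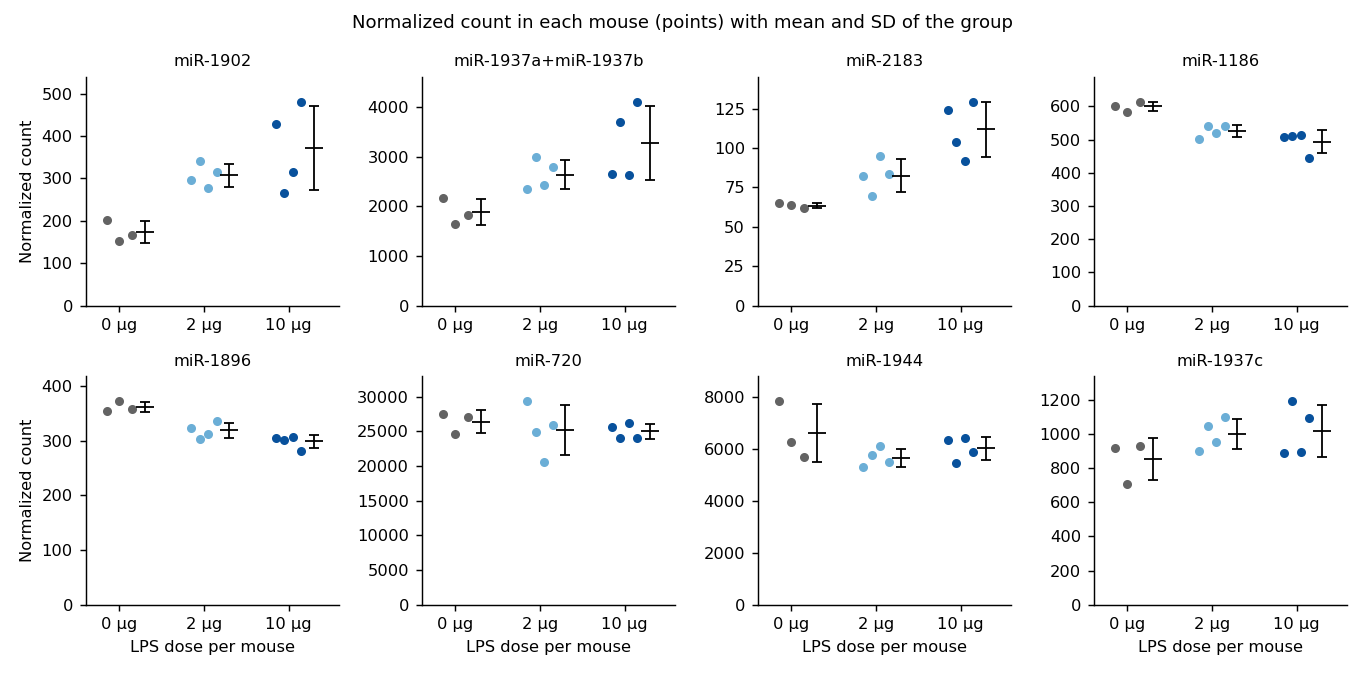
Normalized counts (vertical axes, starting at 0) of the 5 members called at the high dose and of miR-720, miR-1944 and miR-1937c, by LPS dose (horizontal axes, µg); each point is 1 mouse, and the bar beside it is the group mean with its SD (n = 3, 4 and 4). miR-1902, the joint miR-1937 probe and miR-2183 lie higher in all LPS mice than in controls, miR-1186 and miR-1896 lower, and the last 3 overlap.

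Between the doses no member passed in edgeR (0 of 20), where 0.488% of all 205 miRNAs did. At an unadjusted p under 0.05 there were 2 members, miR-2183 and miR-1981, and DESeq2 called none. miR-2183 stood 0.43 ± 0.13 SE higher in high dose than in low dose mice (edgeR adjusted p = 0.141) and passed without high dose mouse 3 (0.52 ± 0.13 SE, edgeR adjusted p = 0.0286), a fit in which 14 of all 205 miRNAs passed, against 1 with every mouse. miR-1981 averaged 441 ± 30.4 normalized counts in high dose mice, 497 ± 20 in low dose mice and 497 ± 14.7 in control mice (SD, n = 4, 4 and 3). The differences of miR-1902 and the joint miR-1937 probe between the doses, 0.28 ± 0.17 and 0.31 ± 0.16 SE, did not pass (edgeR adjusted p = 0.469 and 0.386).

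The other 11 detected members did not pass in any comparison in edgeR; the 1-way analysis of variance with adjustment called miR-1900 lower at the high dose. At the high dose miR-2132 stood at 0.37 ± 0.21 SE, miR-1935 at 0.10 ± 0.11, miR-2141 at 0.07 ± 0.17, miR-1224 at 0.06 ± 0.24 and miR-1839-5p at 0.03 ± 0.12 on the log2 scale. On the lower side miR-1966 stood at -0.03 ± 0.11, miR-1955 at -0.13 ± 0.08, miR-1961 at -0.14 ± 0.16, miR-1965 at -0.16 ± 0.09, miR-1981 at -0.17 ± 0.08 and miR-1900 at -0.22 ± 0.08 (edgeR adjusted p = 0.0752 for miR-1900 and from 0.174 to 0.872 for the others). At the low dose these 11 lay between -0.16 (miR-1965) and 0.17 (miR-1966).

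miR-1961 can be set beside the let-7 probes whose first bases it shares. It had 80.3, 115 and 82.6 normalized counts in control mice, 101, 69.4, 83.0 and 82.7 in low dose mice, and 81.6, 87.2, 78.1 and 87.6 in high dose mice. The groups overlapped, and it passed the bound in 7 of 11 mice. let-7g and let-7i averaged 17824 and 8364 normalized counts over all mice, and neither passed at the high dose (-0.24 ± 0.09 and 0.13 ± 0.15 SE, edgeR adjusted p = 0.0748 and 0.548). let-7c averaged 26865 and rose at the high dose (0.68 ± 0.14 SE, edgeR adjusted p = 0.00404). The other let-7 probes and miR-98 did not pass there. Whether the miR-1961 probe captures let-7 was not tested.

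**Figure D4:**
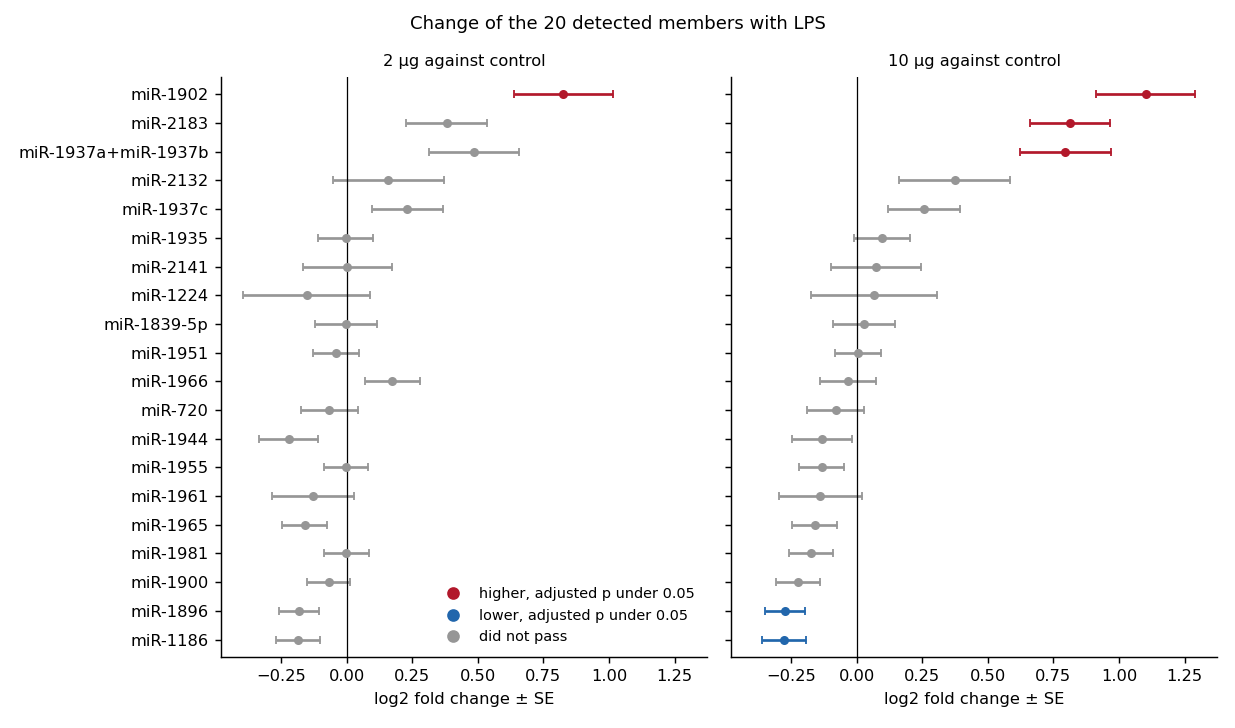
Log2 fold change with its standard error (horizontal axes) of the 20 detected members at 2 µg (left) and 10 µg (right) against control, ordered by the change at 10 µg. Red points rose and blue points fell with an edgeR adjusted p under 0.05, and grey points did not pass; miR-1902 is red at both doses.

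Some members varied between mice of a group by about as much as counting noise, or less. Within-group coefficients of variation (CV, the SD over the mean) were 3.85% for miR-1896, 4.78% for miR-1186, 4.8% for miR-1900, 4.95% for miR-1955, 5.11% for miR-1981 and 5.65% for miR-1965. Counting alone would give 5.56%, 4.33%, 6.21%, 4.40%, 4.58% and 6.31% for them in the same order. Below 200 normalized counts the median CV was 14.6% over 6 members and 14.1% over 71 earlier-numbered miRNAs. At normalized counts of 200 to 1000 the median CV was 5.46% over 11 members and 11.8% over 53 earlier-numbered miRNAs. The variance was under 1.5 times that of counting in 6 of these 11 members and in 5 of the 53. These counts describe probes, which share mice and are not replicates, and no test was made of them.

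miR-1902 was an exception at this level, with a CV of 18.7% against 5.85% from counting, as were miR-1937c at 12.8% against 3.21% and miR-1839-5p at 10.7% against 6.37%. Among the probes with higher counts the CV was 9.75% for miR-720, 10.3% for miR-1944 and 17.2% for the joint miR-1937 probe, against a median of 11.3% over 61 earlier-numbered miRNAs.

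**Figure D5:**
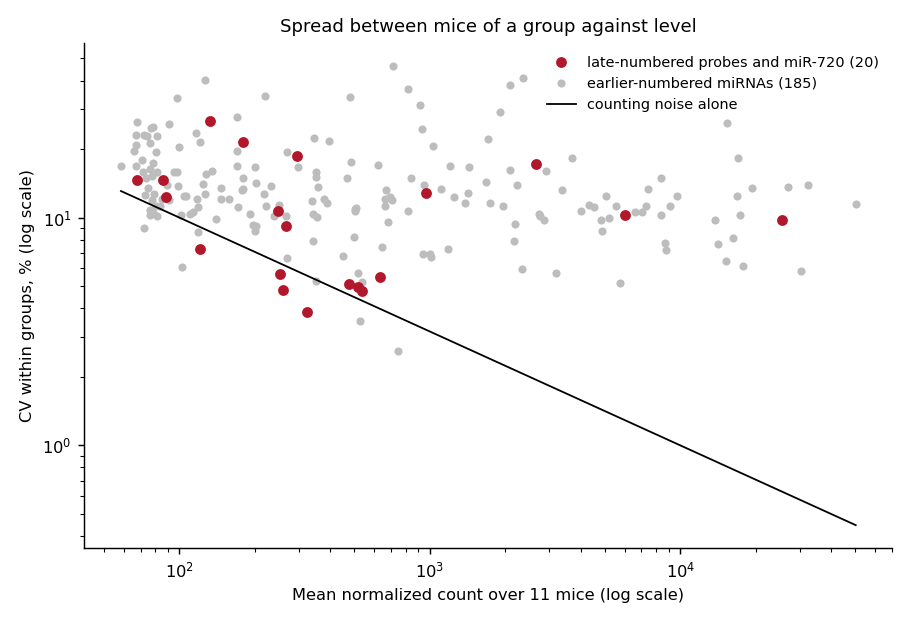
Within-group CV (vertical axis, %, log scale) against mean normalized count over 11 mice (horizontal axis, log scale) for the 20 detected members (red) and 185 earlier-numbered miRNAs (grey); the line is the CV that counting alone gives. Between 200 and 1000 normalized counts, 6 of 11 members and 5 of 53 earlier-numbered miRNAs have a variance under 1.5 times that of counting.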

How the data were processed

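Per the file headers, the authors counted barcodes per probe and lane (nCounter Mouse v1.5 miRNA assay) and deposited them (estimated counts here) without normalization. The name estimated counts was chosen here, because a row with decimals, on lane quality, stands in the same columns. All probe values were whole and were analysed as counts, so rounding changed nothing. The design text plans 4 mice per treatment, and 11 mice were analysed here. The members and lists were chosen with earlier results of these data known.

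The 205 mouse miRNAs detected in at least 3 mice were fitted with edgeR 4.0.16 (R 4.3.3; quasi-likelihood F-tests, 1-way model over all mice, TMM factors, Benjamini-Hochberg over 205, threshold 0.05). The SE is the log2 change divided by the square root of F, and intervals cover 95%. Alternatives covered scaling, filter, background, DESeq2 1.42.0, the 1-way analysis of variance and LSD comparison named in the design text, a replicate block and leaving out each mouse. All detected members were named; those called, the 5 with the highest counts and the tRNA-derived list were given in every mouse. P-values weigh each difference against the spread between these mice, 1 sample each, and edgeR estimates that spread with information from all 205 miRNAs. Depth limits precision: counting alone gives a CV of 0.628% for miR-720 and 12.2% for miR-2141. Sequences and gene names came from RefSeq tables of GRCm38.p6.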

Additional observations from a re-analysis of the deposited data

Results flagged for a closer look

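In miR-1186, high dose mouse 4 had 444 normalized counts, apart from the 507 to 514 of the other high dose mice: the gap was 0.905 of the range of the group. It was the only such value in 56 groups of 4 mice examined, where chance would set about 1 in 20 apart. Without that mouse miR-1186 stood at -0.23 ± 0.08 SE at the high dose and did not pass (edgeR adjusted p = 0.086).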

How the results depend on the processing

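Of the 5 members called at the high dose, miR-1902 and the joint miR-1937a and miR-1937b probe each lost the call in 1 of 25 alternatives and miR-2183 in 1 of 24, each time with scaling to the mRNA reference probes, whereas miR-1896 lost it in 10 of 25 and miR-1186 in 15 of 25; none changed sign. The high dose count of 5 was 3, all higher, with nCounter-style scaling, with scaling to the positive controls, in DESeq2, in a fit to the compared groups alone and with the replicate block, and 0 with scaling to the mRNA probes; of all 205 miRNAs these fits called 34, 18, 39, 29, 28 and 2, against 37. It was 3 to 5 without any single mouse, and 3 without control mouse 2, control mouse 3 or high dose mouse 4. The median log2 change over the 205 miRNAs under mRNA scaling was -0.39 at the high dose and -0.20 at the low dose, and under positive control scaling it was 0.12 and 0.18. Under mRNA scaling miR-1902 stood at 0.64 ± 0.38 SE, the joint miR-1937 probe at 0.46 ± 0.35 and miR-2183 at 0.43 ± 0.35. The low dose count of 1 was 0 with mRNA scaling and 2 with the adjusted analysis of variance. There miR-1896 was the added call and lower. It was also 2 in the fit to the compared groups alone, where the joint miR-1937 probe was the added call and higher. Without any single mouse the low dose count was 0 to 1, as was the count between the doses. Of all miRNAs, mRNA scaling called 0 at the low dose, the adjusted analysis of variance 18 and the compared groups alone 15, against 12. The design text's unadjusted analysis of variance called 7, 5 and 4 members at the high dose, the low dose and between doses, out of 53, 40 and 27 miRNAs. The labels do not tie replicate numbers to a shared litter or day. Of same-numbered pairs of mice, 2 of 10 deviated together (correlation over 0.1), against 9 of 30 pairs with different numbers. The replicate block changed no call of a member beside miR-1186 and miR-1896. Members above the bound per mouse had a median of 20, which was 17 with a bound of 3 SD and 23 with the highest negative control; that bound gave 31 detected members. Among members not called, the sign differed from the reported one in 126 of 1330 values. Probes near the bound are limited by depth: miR-2183 had 56 to 125 unscaled counts, miR-1961 65 to 106 and miR-2141 51 to 83.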
